A study of Mus musculus with 32 samples.

Results

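RNA polymerase II (Pol II) was followed over 10 apolipoprotein genes in 4 mouse organs: liver, kidney, heart and brain. The genes are Apoa1, Apoa2, Apoa4, Apoa5, Apob, Apoc1, Apoc3, Apoe, Apoh and Apom. They were taken by symbol, not by a filter on measured values, from the deposited table of 27179 genes, and each symbol was found there. The choice was made with earlier results of these data known. Organs were flash frozen, or they were kept as FFPE tissue, that is, put through 10% formalin and then into paraffin blocks. Frozen cores were then crosslinked with 1% formaldehyde for 30 min, whereas FFPE tissue was freed of paraffin and heated at 95 °C for 20 min in extraction buffer. All groups were sheared in the same way by PIXUL sonication and precipitated with a Pol II antibody that recognises the C-terminal domain (CTD). The labels list 32 libraries, with 2 for each of 16 groups of organ, preservation and antibody or input. The groups used here are the 8 Pol II groups, and the table holds 1 column for each of them, called a profile below. The sources used here do not give strain, genotype, age or sex of the mice, nor whether a profile is 1 library or both of its group combined. The n below are therefore profiles, and p-values measure only the spread between these profiles, which may be technical.

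Apolipoproteins are the protein part of lipoproteins, the particles that carry cholesterol and triglyceride through blood. Some form the scaffold of the particle, others are small exchangeable proteins that activate or inhibit the enzymes acting on it, and a few are ligands by which cells take the particle up. Hepatocytes make most of the plasma pool, the intestine makes part of it, astrocytes and macrophages make ApoE, and kidney tubule cells are known to make ApoM. Pol II chromatin immunoprecipitation measures polymerase on the gene and not the amount of RNA.

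The stretches just before the start sites are shown first, because most of these genes were high in liver together. RefSeq sequences on GRCm38.p6 (the build named mm10) were given for 8 of the 10 genes, in 12 windows from 250 bases before to 50 after a start site. There is none for Apoc1 and Apoc3. The 250 upstream bases are printed 5′ to 3′ on the strand of the gene for 6 of them: Apoa5 and Apoa2 (the downstream of its start sites in the table), which had the highest liver folds, Apob and Apoh, which hold several of the motifs searched, and Apoa1 and Apom, which hold none. Capitals mark a motif found on either strand, and no motif overlaps another in these stretches.
Apoa5, chr9:46268358-46268607, plus strand: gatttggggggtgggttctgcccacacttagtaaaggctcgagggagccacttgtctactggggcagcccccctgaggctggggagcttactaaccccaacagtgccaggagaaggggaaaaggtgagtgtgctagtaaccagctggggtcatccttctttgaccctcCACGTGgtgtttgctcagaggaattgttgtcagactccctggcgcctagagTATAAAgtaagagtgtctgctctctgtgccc
Apoa2, chr1:171224804-171225053, plus strand: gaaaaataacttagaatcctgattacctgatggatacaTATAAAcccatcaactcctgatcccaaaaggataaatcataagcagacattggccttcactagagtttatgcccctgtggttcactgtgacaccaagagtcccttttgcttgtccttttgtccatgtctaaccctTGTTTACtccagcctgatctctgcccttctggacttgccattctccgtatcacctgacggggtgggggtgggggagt
Apob, chr12:7977427-7977676, plus strand: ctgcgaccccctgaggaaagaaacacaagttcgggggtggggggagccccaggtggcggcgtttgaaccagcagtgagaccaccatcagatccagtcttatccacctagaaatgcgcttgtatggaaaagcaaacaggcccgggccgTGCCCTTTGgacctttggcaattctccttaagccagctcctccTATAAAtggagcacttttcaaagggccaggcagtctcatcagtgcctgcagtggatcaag
Apoh, chr11:108395047-108395296, plus strand: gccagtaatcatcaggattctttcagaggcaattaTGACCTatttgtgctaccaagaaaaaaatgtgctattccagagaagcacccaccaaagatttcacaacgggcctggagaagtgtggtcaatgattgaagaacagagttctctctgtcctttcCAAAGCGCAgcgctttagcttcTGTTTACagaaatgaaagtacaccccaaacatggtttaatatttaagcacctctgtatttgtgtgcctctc
Apoa1, chr9:46228380-46228629, plus strand: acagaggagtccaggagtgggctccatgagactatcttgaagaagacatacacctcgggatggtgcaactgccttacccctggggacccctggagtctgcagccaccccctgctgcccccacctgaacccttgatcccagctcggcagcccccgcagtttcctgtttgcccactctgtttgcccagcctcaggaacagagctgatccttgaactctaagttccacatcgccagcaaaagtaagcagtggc
Apom, chr17:35131802-35132051, minus strand: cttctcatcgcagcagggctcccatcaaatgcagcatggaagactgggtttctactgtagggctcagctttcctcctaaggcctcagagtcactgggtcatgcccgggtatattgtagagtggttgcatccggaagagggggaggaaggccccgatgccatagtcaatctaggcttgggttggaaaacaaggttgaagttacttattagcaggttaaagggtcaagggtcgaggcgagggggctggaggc

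The letters TATAAA of the TATA box were present in windows of Apoa5, Apoa2, Apob and Apoe, and in 13.6% of all 32851 windows of the RefSeq table. In Apoa5 they began 31 bases upstream of the first start site and in Apob 60 bases upstream. In Apoa2 they began 212 bases upstream of the start site of the printed stretch. In Apoe, at the start site chr7:19698621, they began 96 and, on the other strand, 100 bases upstream. The core of the forkhead (FOXA) motif, TGTTTAC, was present in windows of Apoa2, Apoe and Apoh and in 3.65% of all windows. It began 77 bases upstream in Apoa2, 71 in Apoh and 5 in Apoe. In Apoe this was at a different start site, chr7:19698398, from that of TATAAA. The Apoe window of the start site chr7:19699188 held none of the motifs searched. The letters CAAAGNNCA, part of the motif of the nuclear receptor HNF4A, were present in Apoa4, Apob and Apoh and in 6.36% of all windows. The E-box CACGTG stood 82 bases upstream of the first Apoa5 start site, and 7.15% of all windows hold it. The nuclear receptor hexamer AGGTCA was found in Apoa2 and Apoh (16.3% of all windows). In Apoa2 it lay before the upstream start site, chr1:171221564, and so not in the printed stretch. GTTAAT, a piece of the HNF1 motif, was found in Apoe alone among the 8 (7.10% of all windows), in the same window as TGTTTAC. Counted by window, TATAAA was in 5 of the 12, TGTTTAC and CAAAGNNCA in 3 each, CACGTG and AGGTCA in 2 each and GTTAAT in 1. The Apoa5 windows (chr9:46268358-46268657 and chr9:46268383-46268682) overlap, so the same TATAAA and the same CACGTG were counted in both. By gene, TATAAA was in 4 of the 8 and CACGTG in 1. These matches describe letters only; binding of a factor was not measured in these profiles.

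The profiles held between 864816 (FFPE liver) and 2178329 (frozen liver) reads in genes, and the median gene had 16 to 39 reads. Mitochondrial genes took 7.73% to 25.6% of reads, the highest share in FFPE heart. Markers fitted the organ labels: 9 hepatocyte markers that are not apolipoproteins (Alb, Ttr, Fgb, Fga, Ahsg, Serpina1a, Cyp2e1, Tat and Cps1) summed to 12190 RPM (reads per 1000000 scaled reads) in frozen liver and 2346 in FFPE liver, against 95.3 to 206 in the other profiles. No marker of this list was at 0 reads in any profile. In bulk tissue, fewer cells of a type and less Pol II per cell cannot be told apart.

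Apoa1 and Apoa2 are the main proteins of high-density lipoprotein (HDL). Apoa1, the activator of the cholesterol-esterifying enzyme LCAT, had a level (log2, depth-scaled) of 10.04 in frozen and 7.30 in FFPE liver, against 4.10 and 4.42 in brain, 3.92 and 5.26 in heart and 4.04 and 4.81 in kidney, each frozen first. These levels stand for 1981 and 146 reads in liver and for 22 to 43 reads elsewhere. Both liver profiles were above all others, and FFPE heart was the nearest. Apoa2 stood at 8.58 in frozen and 6.32 in FFPE liver, 1.54 and 2.23 in brain, 2.67 and 3.03 in heart and 1.97 and 1.67 in kidney. Outside liver Apoa2 had 4 to 9 reads per profile, so the order of the other organs rests on few reads. Apoa4, an HDL protein made mostly in the intestine and linked to lipid absorption, was at 4.75 in frozen and 4.15 in FFPE liver. It stood at 1.78 and 1.15 in brain, 2.33 and 3.03 in heart and 2.45 and 1.96 in kidney, on 4 to 10 reads outside liver and 50 and 16 within it.

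Apoa5, Apoc3 and Apoc1 act on triglyceride-rich particles. Apoa5, which promotes triglyceride hydrolysis by lipoprotein lipase, was at 10.21 in frozen and 7.80 in FFPE liver, at 2.93 and 4.13 in brain, 2.33 and 2.50 in heart and 3.99 and 4.00 in kidney. Its 2219 reads in frozen liver compare with 4 to 35 reads in the 6 profiles of the other organs. Apoc3, an inhibitor of that lipase and of particle uptake, was at 7.50 and 5.64 in frozen and FFPE liver, 1.98 and 1.89 in brain, 0.01 and 3.42 in heart and 2.92 and 1.67 in kidney. The frozen heart value is a single read and the FFPE heart value 8 reads, so both rest on very few reads. Apoc1 is a small exchangeable protein that inhibits lipases. It was at 7.23 and 4.88 in liver, 1.25 and 2.37 in brain, 2.51 and 3.03 in heart and 2.71 and 2.59 in kidney. For all 3 genes both liver profiles lay above every other profile.

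Apob encodes the structural protein of very-low-density and low-density lipoprotein, 1 molecule of which stays with each particle. It was at 10.96 in frozen and 8.98 in FFPE liver, 6.28 and 6.33 in brain, 5.68 and 6.10 in heart and 6.63 and 6.39 in kidney. It is the longest of the genes (39211 bases), and its 54 to 189 reads outside liver make it the member measured with most reads there. Apoe, a ligand by which cells take up lipoprotein particles, was at 8.91 in frozen but 5.61 in FFPE liver, at 3.96 and 4.17 in brain, 4.80 and 4.28 in heart and 4.04 and 4.39 in kidney. The liver profiles were again the highest, and frozen heart was the nearest of the others to FFPE liver. Apoh (beta-2-glycoprotein I, a phospholipid-binding plasma protein) was at 6.72 and 5.12 in liver, 2.16 and 3.59 in brain, 3.92 and 3.85 in heart and 3.49 and 3.26 in kidney. Apom, the HDL protein that carries sphingosine-1-phosphate, was at 5.06 and 4.15 in liver, 2.60 and 3.47 in brain, 3.71 and 3.42 in heart and 3.62 and 4.48 in kidney. Its groups overlapped: FFPE kidney (31 reads) was above FFPE liver (16 reads).

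**Figure D1:**
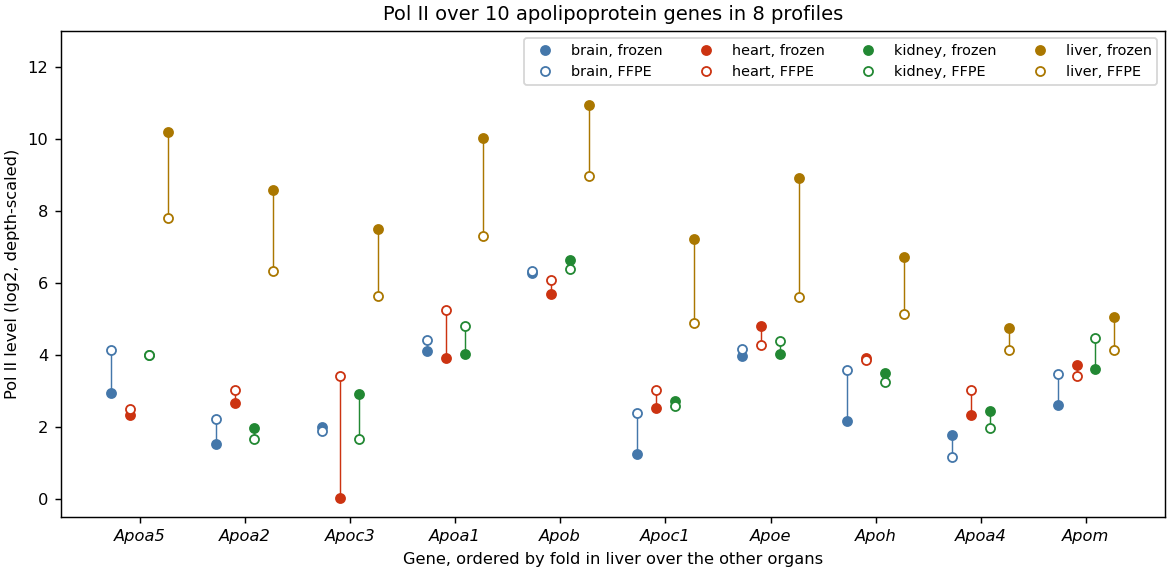
Pol II level (log2, depth-scaled; vertical axis) of each of the 10 genes in the 8 profiles, with filled points for frozen and open points for FFPE tissue, colours for organs and a line joining the profiles of an organ. The gold liver points lie above all others for 9 genes, from 10.96 (Apob, frozen) downward, while Apom in FFPE liver (4.15) lies below FFPE kidney (4.48).

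The first comparison asked how far Pol II over these genes differed between liver and the other organs, with organ and preservation as terms in limma (2 against 6 profiles; errors are standard errors). The test kept 26758 genes and all 10 members among them. In liver, 9 of the 10 genes were higher at an adjusted p under 0.05, against 4.52% of all genes tested, and Apom was not called. The median log2 fold of the 10 genes was 3.69, beside -0.02 over all genes tested. Of the triglyceride regulators, Apoa5 was higher by a log2 fold of 5.69 ± 0.45 (limma adjusted p = 2.83e-08), Apoc3 by 4.59 ± 0.73 (0.000208) and Apoc1 by 3.65 ± 0.60 (0.000282). Of the HDL proteins, Apoa2 was higher by 5.26 ± 0.55 (limma adjusted p = 1.2e-06), Apoa1 by 4.25 ± 0.46 (1.98e-06) and Apoa4 by 2.33 ± 0.61 (0.019). The structural gene Apob was higher by 3.73 ± 0.30 (limma adjusted p = 4.1e-08), the receptor ligand Apoe by 2.99 ± 0.46 (0.000147) and Apoh by 2.55 ± 0.48 (0.00115). For Apom the fold was 1.05 ± 0.47 with a limma adjusted p of 0.208. For the 9 called genes liver was also above each of the other organs within frozen and within FFPE tissue, a pattern shown by 10.8% of all genes tested.

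Without the mean-dependent trend in limma's empirical Bayes step no gene of the table passed (smallest adjusted p = 0.092), while 4210 genes and 9 of the 10 members had an unadjusted p under 0.05. Without the frozen liver profile 4 members remained called (Apoa1, Apoa2, Apoa5 and Apob), and without the FFPE liver profile 8, where Apoa4 was lost.

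Taken organ by organ, liver was above brain for 9 genes (5.35% of all genes tested were higher in liver), above kidney for 8 (2.34%) and above heart for 8 (3.65%). Apoa4 passed against brain (log2 fold 2.98 ± 0.75, limma adjusted p = 0.0116) but had adjusted p of 0.115 against kidney and 0.19 against heart. For Apom the log2 fold was 1.57 ± 0.57 against brain (limma adjusted p = 0.0968), 1.04 ± 0.57 against heart (0.355) and 0.55 ± 0.57 against kidney (0.753). For Apoa5, liver exceeded heart by 6.59 ± 0.55 and kidney by 5.01 ± 0.55, both called. These organ pairs share the liver profiles, and each count fell to 4 without frozen liver. Against kidney it was 5 without either kidney profile, and against heart 4 without frozen heart; without the trend in the empirical Bayes step limma called 0 in each pair (10, 9 and 9 members at an unadjusted p under 0.05 against brain, kidney and heart).

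The liver excess was found in each kind of tissue but was larger in the frozen one. In frozen tissue, liver minus the mean of the other 3 organs had a median of 4.92 (log2) over the 10 genes, from 1.75 (Apom) to 7.12 (Apoa5), and 9 genes were above 2. In FFPE tissue the median was 2.34, from 0.36 (Apom) to 4.26 (Apoa5), and 7 genes were above 2. The excess was larger in frozen tissue for 10 of 10 genes. For the 9 hepatocyte markers the medians were 6.73 in frozen and 3.85 in FFPE tissue, also larger in frozen tissue for 9 of 9. Each of these values compares 1 profile with 3, so none carries a test by itself. For each gene, the frozen excess minus the FFPE excess is the same quantity, with the sign reversed, as the liver difference in the FFPE effect fitted below. The 2 are not separate results.

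**Figure D2:**
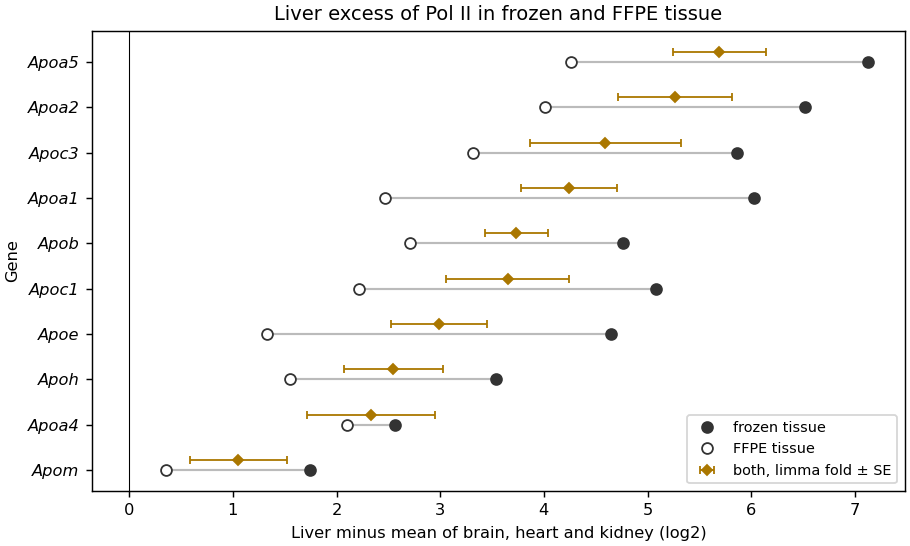
Liver minus the mean of brain, heart and kidney (log2, horizontal axis) for each gene, in frozen tissue (filled circles), in FFPE tissue (open circles) and from limma over both (gold diamonds with the standard error). Every filled circle lies to the right of its open circle, and the frozen values run from 1.75 for Apom to 7.12 for Apoa5.

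Between the organs other than liver none of the 10 genes was called by limma. The kidney and heart comparison called 0 members, where 2.67% of all genes tested were called in either direction; the kidney and brain comparison called 0 (3.78%), and the brain and heart comparison 0 (6.65%). Apoa5 alone had an unadjusted p under 0.05 in these comparisons. Its kidney level exceeded its heart level by 1.58 ± 0.55 (log2; limma adjusted p = 0.152). This fold was called when the FFPE liver profile was left out of the fit. For Apom the kidney exceeded brain by 1.01 ± 0.57 (limma adjusted p = 0.498), not called, with kidney above brain in both frozen and FFPE tissue. For Apoe, brain had the lowest mean level of the 4 organs: brain minus heart was -0.48 ± 0.56 (limma adjusted p = 0.736), and kidney minus brain 0.15 ± 0.56 (0.969). Astrocyte markers (Gfap, Aqp4, Slc1a2, Slc1a3 and Aldoc) summed to 327 and 295 RPM in frozen and FFPE brain, against 157 to 210 in the other profiles. Of these 5, 2 were higher in brain than in heart by the same limma test, beside 743 of the 26758 genes tested. Macrophage and microglia markers summed to 131 to 209 RPM in all 8 profiles. In liver against the other organs 0 of 8 were called, where 4.52% of all genes tested were higher. By the mean of the frozen and FFPE level, liver came first for each of the 10 genes, and limma called no difference between neighbours in the order of brain, heart and kidney. The Apoa5 order was kidney, brain and heart, with brain minus heart at 1.12 ± 0.55 (limma adjusted p = 0.288) and brain above heart in both frozen and FFPE tissue.

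Levels between genes can be compared only per length, here as RPM per kilobase of annotated gene body. Whether the deposited reads were counted over exons or over the whole body was not determined. The order of the genes and their place against the yardstick below depend on the length used. In frozen liver Apoa1 had 573 and Apoa5 357, followed by Apoe with 94.9, Apoa2 with 79.2, Apoc3 with 70.0, Apob with 50.8 and Apoc1 with 47.2. Apom with 11.8, Apoa4 with 10.2 and Apoh with 5.52 made up the low end. In FFPE liver Apoa1 (85.1) and Apoa5 (67.0) again came first on this scale, but Apoe, at 9.53, lay behind Apoc3 (19.1), Apoa2 (16.5) and Apob (12.9). Apoc1 (9.11), Apoa4 (6.56), Apom (6.12) and Apoh (1.80) followed. As a yardstick, 1464 olfactory and vomeronasal receptor genes were taken by name as silent in these organs. Their medians per profile were 2.14 to 3.66 on the same scale. In every profile this was above the median of all genes outside the mitochondrial genome (1.31 to 1.495). The 90th percentiles of the receptor genes were 5.97 to 8.47. In frozen liver 9 of the 10 genes were above that percentile of their own profile, and in FFPE liver 7. In each of the other profiles Apoa1 was above it, with 8.02 to 20.5 RPM per kilobase, and Apom was above it in FFPE kidney alone. Apoe in brain, at 3.02 in frozen and 3.50 in FFPE tissue, was at about the median of these receptor genes (3.31 and 3.66). It was above the median of all genes in those profiles (1.41 and 1.465). It was also above the summed reads of the receptor genes per summed kilobase (1.32 and 1.415). Together the 10 genes took 0.482% of all reads in frozen liver and 0.125% in FFPE liver, against 0.0134% to 0.0214% in the other profiles.

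The second comparison set FFPE against frozen tissue over all 4 organs (4 against 4 profiles, organ as a block). limma called none of the 10 genes lower in FFPE tissue (0.422% of all genes tested were) and none higher (0.153%), and 0 had an unadjusted p under 0.05. The folds ran from -0.81 ± 0.40 for Apoe (limma adjusted p = 0.545) to 0.13 ± 0.40 for Apom. With voom weights in limma 3 genes were called lower in FFPE tissue, Apoa2, Apoa5 and Apoe, beside 247 of the 26758 genes tested.

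Within liver, all 10 genes were lower in FFPE than in frozen tissue, which 50.9% of all genes tested were. The FFPE minus frozen difference had a median of -2.12 (log2) over the 10 genes and -0.02 over all genes. In brain 2 of the 10 genes were lower in FFPE tissue (median 0.51), in heart 3 (0.39) and in kidney 6 (-0.17). The 9 hepatocyte markers were all lower in FFPE liver too, with a median of -2.31; their part in the members' values was not tested. Within an organ there is 1 profile on each side, and the intervals below cover counting error only (exact binomial, 95%). The receptor ligand Apoe had 9.96 times as many depth-scaled reads in frozen as in FFPE liver (7.38 to 13.8), the highest ratio of the 10. The ratio was 6.74 for Apoa1 (5.69 to 8.02), 5.32 for Apoa5 (4.61 to 6.17), 5.19 for Apoc1 (3.49 to 8.01) and 4.80 for Apoa2 (3.78 to 6.19). Apob (3.95, 3.59 to 4.36), Apoc3 (3.67, 2.69 to 5.11) and Apoh (3.07, 2.11 to 4.61) had lower ratios. Apom had 1.92 (1.10 to 3.57) and Apoa4 1.55 (0.869 to 2.92), whose interval includes 1. The ratio of Apoe was thus above that of Apob by more than their counting intervals, and the order of Apoa1, Apoa5, Apoc1 and Apoa2 was not resolved beyond neighbouring intervals.

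**Figure D3:**
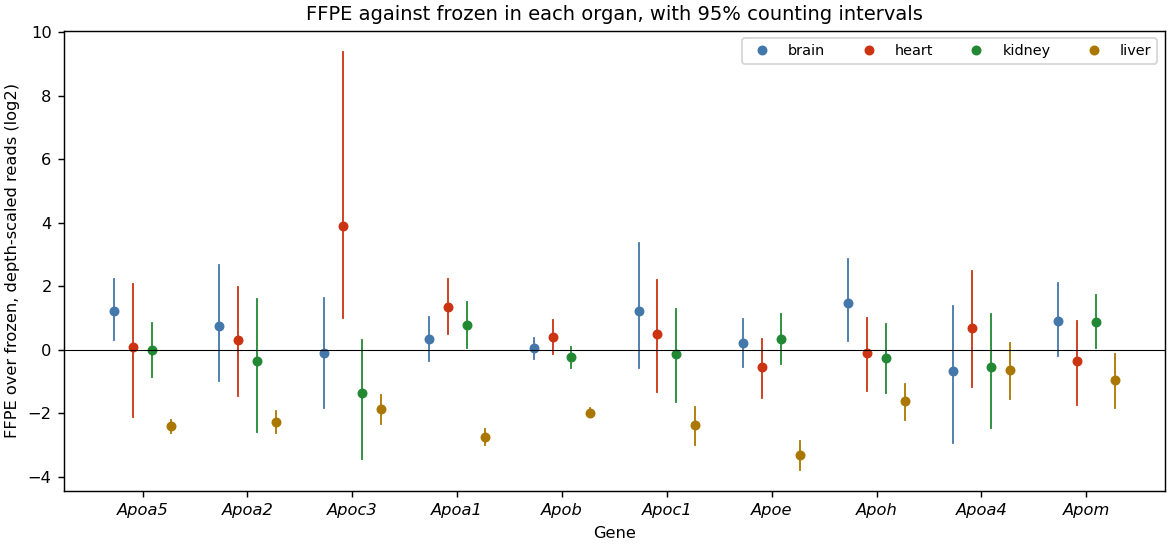
FFPE over frozen depth-scaled reads (log2, vertical axis) of each gene in each organ, as points with exact binomial 95% counting intervals. The gold liver points lie below 0 for all 10 genes, and their intervals are below 0 for 9; the wide bars in heart and kidney belong to genes with few reads, such as Apoc3 with 1 read in frozen heart.

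A test of whether the FFPE difference in liver departed from that in the other 3 organs was made with limma on the 4 differences, the single liver difference, which has no spread of its own, being assumed to vary like the others. It called 4 of the 10 genes, all lower in liver, where 0.419% of all genes tested were. Apoa1 differed by -3.56 ± 0.50 (log2; limma adjusted p = 0.000246), Apoe by -3.32 ± 0.56 (0.00213), Apob by -2.06 ± 0.38 (0.0051) and Apoa5 by -2.86 ± 0.63 (0.0223). The other 6 values were negative and not called: Apoc1 -2.86, Apoc3 -2.55, Apoa2 -2.51, Apoh -1.98, Apom -1.39 and Apoa4 -0.46. The median over the 10 genes was -2.53, and over all genes -0.03. Outside liver Apoa1, Apoa5 and Apoe had 4 to 43 reads per profile, and Apob 54 to 189. For Apoe, FFPE over frozen reads were 0.100 in liver. Its counting intervals elsewhere were 0.692 to 1.96 in brain, 0.352 to 1.26 in heart and 0.739 to 2.18 in kidney. For Apoa5 the interval in heart was wide, 0.230 to 4.21, against a ratio of 0.188 in liver. Whether low levels outside liver bear on the difference was not tested. Summed markers of the other organs were also lower in FFPE tissue. They were 5862 and 2773 RPM for cardiomyocytes in frozen and FFPE heart, 1278 and 907 for proximal tubule in kidney, and 600 and 556 for neurons in brain. Whether an FFPE fall of highly loaded genes is particular to liver was not tested. For Apoa1 the difference rested also on the other organs, where FFPE reads exceeded frozen reads 2.55 times in heart (1.42 to 4.64), 1.71 times in kidney (1.04 to 2.83) and 1.26 times in brain (0.777 to 2.05). Without the trend in the empirical Bayes step, and after quantile normalization of the profiles, limma called none of the 10 genes here (6 and 3 had an unadjusted p under 0.05). Apob was not called after scaling to the silent receptor genes, and Apoa5 was not called without mitochondrial genes and scaling factors or without either brain profile.

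Of the 10 genes, 6 lie in known clusters. Apoa1 (chr9:46228630-46230469), Apoc3 (chr9:46233050-46235636), Apoa4 (chr9:46240844-46243458) and Apoa5 (chr9:46268608-46271921) share 43292 bases of chromosome 9. Apoc1 (chr7:19689480-19692659) and Apoe (chr7:19696244-19701310) lie together on chromosome 7 beside Apoc4 and Apoc2, which are not among the 10. The other 4 genes are Apoa2 (chr1:171221564-171226379), Apob (chr12:7977629-8016839), Apoh (chr11:108395297-108414396) and Apom (chr17:35128997-35131801). Within the Apoa1 cluster the reads were shared unevenly. The shares below are not scaled for gene length. Per kilobase Apoa1 was ahead of Apoa5, at 573 against 357 RPM in frozen and 85.1 against 67.0 in FFPE liver. In frozen liver Apoa5 held 48.3% of the 4590 cluster reads (95% exact binomial interval 46.9 to 49.8), Apoa1 43.2% (41.7 to 44.6), Apoc3 7.41% (6.67 to 8.20) and Apoa4 1.09% (0.810 to 1.43). In FFPE liver Apoa5 held 49.9% of 415 reads (45.0 to 54.8) and Apoa1 35.2% (30.6 to 40.0), with 11.1% for Apoc3 (8.23 to 14.5) and 3.86% for Apoa4 (2.22 to 6.19). The share of Apoa1 was lower and those of Apoc3 and Apoa4 were higher in FFPE than in frozen liver, with counting intervals that did not overlap, whereas those of Apoa5 overlapped.

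The liver excess did not extend evenly past the clusters. Next to Apoa5, 1142 bases away, Zpr1 (a zinc finger protein gene) was higher in liver by 1.53 ± 0.29 (log2; limma adjusted p = 0.00148), and Bud13, behind it, had 0.47 (0.441). On the side of Apoa1, the kinase gene Sik3 was higher by 0.74 ± 0.23 (limma adjusted p = 0.0445). In the Apoe cluster, Apoc4 was higher by 3.82 ± 0.73 (limma adjusted p = 0.00144) and Apoc2, the activator of lipoprotein lipase, by 2.02 ± 0.61 (0.044). Tomm40, which encodes a mitochondrial import channel and lies 2 bases from Apoe, had 0.41 (0.46), and Nectin2 behind it 0.33 (0.617). Clptm1 on the other side was lower in liver (-0.85 ± 0.24, limma adjusted p = 0.0272). Apoa2 overlaps Tomm40l by 951 bases, and Tomm40l was higher in liver by 2.35 ± 0.32 (limma adjusted p = 3.72e-05), as was Nr1i3 beside it, the xenobiotic receptor CAR, by 2.50 ± 0.33 (2.97e-05). Reads in the stretch shared by Apoa2 and Tomm40l cannot be told apart by gene. Among the 28 non-member genes within 50 kb of a member, 6 were higher and 1 lower in liver, with a median log2 fold of 0.26; of all 26758 genes tested, 1210 were higher and 907 lower.

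**Figure D4:**
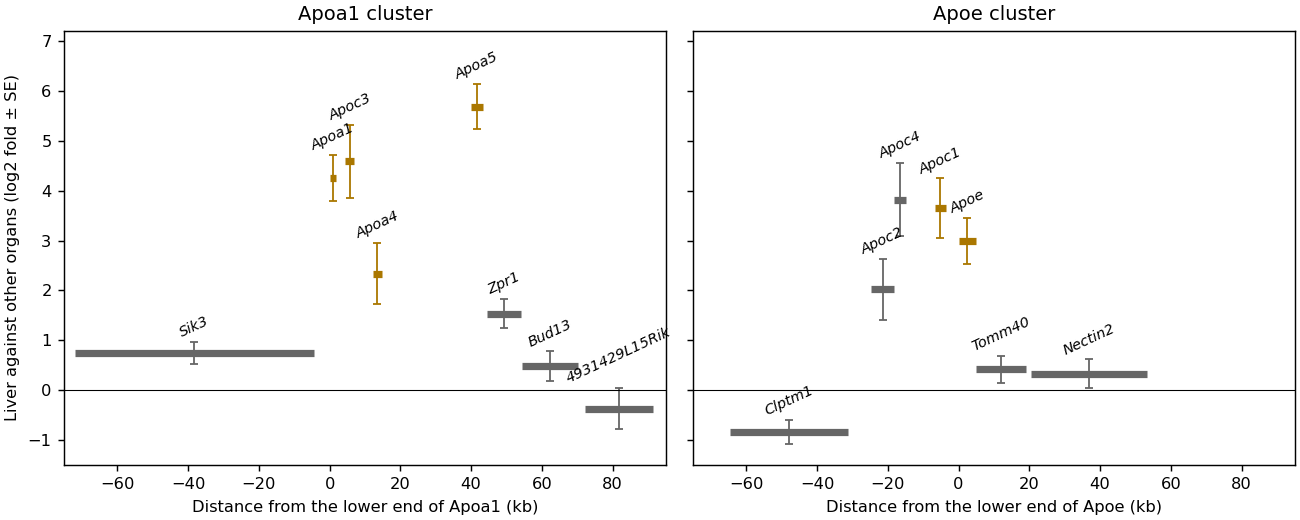
Liver against the other organs (log2 fold with standard error, vertical axis) for genes of the Apoa1 cluster (left) and the Apoe cluster (right), by distance from the lower end of Apoa1 or Apoe (kb, horizontal axis); bars span the gene body and gold marks the 10 genes studied. The gold bars, from 2.33 (Apoa4) to 5.69 (Apoa5), stand above Sik3, Bud13, Tomm40 and Nectin2, all below 1, while Apoc4 (3.82) lies among them.

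Genes that work with these apolipoproteins were counted in the same liver comparison. In it, 4.52% of all genes tested were higher in liver (1210, with 907 lower), and the median fold was -0.02. Without the trend in the empirical Bayes step no gene of the table passed, so the calls in these lists rest on that step. Of 16 other apolipoproteins and particle-bound proteins, 8 were higher in liver and none lower (median 1.78), led by the retinol carrier Rbp4 (4.01 ± 0.60), Apoc4 (3.82 ± 0.73) and Apon (2.91 ± 0.44). The folds of that list nearest to 0 were those of Apol6 (-0.30) and Apool (-0.16). Of 13 genes of particle assembly and secretion, 6 were higher and none lower (median 1.17). They included Mttp, which loads lipid onto ApoB (1.27 ± 0.24), its partner P4hb (1.69 ± 0.24), Mia2 (1.73 ± 0.52), a cargo receptor of the secretory pathway, and Pla2g12b (2.18 ± 0.66). Tango6 (-0.34) and the triglyceride synthase Dgat1 (-0.28) had the folds nearest to 0 there. All these folds are liver minus other organs on the log2 scale of limma.

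Of 11 plasma enzymes and regulators, 6 were higher in liver and none lower (median 0.93). The lipase regulators Angptl4 (2.95 ± 0.35) and Angptl8 (2.42 ± 0.41) and Lcat (2.51 ± 0.43), the enzyme activated by ApoA1, had the largest folds. Lmf1 (0.35) and Pltp (0.13) were nearest to 0. Of 15 receptors and transporters, 6 were higher and 2 lower (median 0.25). The sterol exporters Abcg8 (2.08 ± 0.30) and Abcg5 (1.50 ± 0.32) and the exporter Abca1, which lipidates ApoA1 (1.44 ± 0.21), were among those higher. The lower pair were Vldlr (-1.05 ± 0.23) and Lrp2 (-0.72 ± 0.22), the endocytic receptor of the kidney tubule. Abcg1 (-0.21) and Amn (0.03) were nearest to 0. Of 17 transcription factors known to act on apolipoprotein genes, 13 were higher and none lower (median 1.60), led by Hnf4a (2.77 ± 0.30), Foxa3 (2.65 ± 0.40) and Foxa2 (2.42 ± 0.39), whereas Nr1h2 (0.08) and Srebf2 (-0.01) were near 0. The hepatocyte markers were higher in 9 of 9 cases, with a median of 5.15.

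The genes with the most similar profile were named from 22313 genes outside the 10, by Pearson's r over the 8 profiles, as a description. For the mean of the 4 genes of the Apoa1 cluster they were Serpina1c (0.994), Alb (0.993), Hyou1 (0.990), Tat (0.989) and Saa4 (0.988). For Apoe they were Ranbp10 (0.991), Gm19929 (0.989), Manf (0.988), Syvn1 (0.986) and Alas1 (0.983). For Apom they were Birc6 (0.980), AW209491 (0.971), Ttc23 (0.969), Fam25c (0.967) and Lyn (0.964). The points share the profile totals and, for each organ, the same tissue. The lists for Apoe and for the cluster mean hold no gene in common.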

How the data were processed

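Pol II chromatin immunoprecipitation libraries of 4 organs, frozen and FFPE, were sequenced. Per the submitters' processing notes, the tools were Bowtie2, featureCounts and limma, with the build mm10; the sources used here give neither versions nor the strand of counting. The authors deposited log2 values that follow the scale of limma's voom function, (reads + 0.5) over a scaled total. With the lowest value of each column set to 0 reads, 100% of values were whole reads (tolerance 1e-06). Scaling factors ranged from 0.862 to 1.12. The same 0.5 reads are added at each depth, so the totals bear on the values of thinly covered genes.

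From these values, genes that reached a log2 of 0 in 2 or more profiles were kept, and limma 3.58.1 under R 4.3.3 (trended empirical Bayes; Benjamini-Hochberg adjusted p under 0.05 over 26758 genes) was fitted with organ and preservation as additive terms (3 residual degrees of freedom, prior 19.4). The liver difference in the FFPE effect was fitted on the 4 FFPE minus frozen values (2 residual degrees of freedom, prior 31.6). Entrez numbers of 25275 genes (93.0%) matched the RefSeq positions on GRCm38.p6; 1275 rows without symbol were kept. Per-length values used the annotated gene body.

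The 10 genes and the lists were chosen with earlier results of these data known. All 10 were named; of each list, the 3 genes with the largest and the 2 with the smallest absolute liver fold. Mttp, Vldlr and Lrp2 were named outside this rule after their values were seen, and the hepatocyte and astrocyte markers were named in full. Besides the lists described in the results, cardiomyocyte, proximal tubule and neuron markers checked the organ labels: they summed to 5862 and 2773 RPM in frozen and FFPE heart, 1278 and 907 in kidney, and 600 and 556 in brain, each the highest among the organs. Alternatives were other filters, scalings, added reads and tests, and leaving out each profile. Input libraries were not analysed here.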

Additional observations from a re-analysis of the deposited data

Results flagged for a closer look

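Apoa4 stood apart in heart: its FFPE minus frozen difference was 0.6976 (log2) there, against -0.63 to -0.49 in the other 3 organs. The gap made up 0.897 of the whole range, past Dixon's limit for 4 values. Chance alone passes that limit in about 1 of 20 groups, and the heart values rest on 6 and 7 reads.

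The FFPE effect differed between liver and the other organs for 4 genes in limma's test of the difference itself, where liver has a single difference that is assumed to vary like the others. Liver minus the mean of the others was -3.56 for Apoa1, -3.32 for Apoe, -2.86 for Apoa5 and -2.06 for Apob (log2). Each of these genes had an FFPE value below the frozen value in liver. Outside liver Apoa1, Apoa5 and Apoe had 4 to 43 reads per profile, and Apob 54 to 189. Whether such low levels bear on the difference was not tested. After quantile normalization, or without the trend in the empirical Bayes step, 0 of the 10 genes were called.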

How the results depend on the processing

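The number of genes called higher in liver (9 against all other organs, 9 against brain, 8 against kidney, 8 against heart) was the same with a stricter filter, under 3 other scalings and with added reads in proportion to depth. Without a filter it was 9, 9, 8 and 7, and with voom weights 9, 10, 9 and 9. Without the trend in limma's empirical Bayes step it was 0 in each of these comparisons, and 0 for the FFPE effect in liver (4 in the main fit); of the 10 genes, 9, 10, 9, 9 and 6 had an unadjusted p under 0.05. Leaving out 1 profile in turn (leave-one-out), the number ranged from 4 to 9 against all others, 4 to 10 against brain, 4 to 8 against kidney and 4 to 8 against heart. The lowest value of 4 came without frozen liver in each, and also without frozen heart in the last; without frozen or FFPE kidney it was 5 against kidney. The lone liver profile is then assumed to vary like the others. Kidney above heart gave 0 to 1 (Apoa5, without FFPE liver). Of the 4 genes with a lower FFPE effect in liver, quantile normalization left 0 (3 at an unadjusted p under 0.05), and leave-one-out left 3 to 4, with Apoa5 lost without either brain profile. Scaling to silent receptor genes left 3 (Apob lost), leaving out mitochondrial genes and scaling factors left 3 (Apoa5 lost), and voom weights called 5, Apoc1 added. Voom weights called 3 genes lower in FFPE tissue over all organs, against 0.

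FFPE against frozen, where no gene was called, changed sign for several genes. Quantile normalization gave 0.34 for Apoa1, 0.16 for Apoa5 and 0.0172 for Apob; leaving out mitochondrial genes and scaling factors gave 0.0395 for Apoa1 and 0.0017 for Apoh; scaling to silent receptor genes gave -0.0256 and voom weights -1.36 for Apoc3. Leaving out 1 profile in turn, the fold ranged from -0.55 to 0.81 for Apoa1, -0.73 to 0.25 for Apoa2, -0.75 to 0.46 for Apoa5, -0.72 to 0.0773 for Apob, -0.65 to 0.51 for Apoc1, -1.07 to 0.69 for Apoc3, -1.20 to 0.0138 for Apoe, -0.63 to 0.38 for Apoh and -0.11 to 0.48 for Apom, the highest value of each coming without a liver profile. The cause of these changes was not tested. Frozen liver thinned to the total of FFPE liver, chosen after seeing the data, gave the same numbers of calls as the main fit.

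No paired analysis was possible because the columns carry no replicate number; this concerns pairing by replicate, while FFPE and frozen profiles were matched by organ. Exon lengths were not used here. Outside liver most of the 10 genes had under 50 reads per profile, which limits any difference among brain, heart and kidney.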
